A study of Caenorhabditis elegans with 16 samples.

Results

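The nematode *Caenorhabditis elegans* has a family of small proteins that bind fatty acids and related lipids in a barrel-shaped pocket, the lipid-binding proteins, which are relatives of the vertebrate fatty acid binding proteins. Their genes *lbp-1* to *lbp-9* were selected by symbol from a table of 19750 genes, and all 9 were found. The RNA came from whole N2 (wild type) worms on day 1 of adulthood, about 500 worms per sample, with 4 samples in each of 4 groups. The first group was fed from the first larval stage on bacteria that silence *ech-6*, an enoyl-CoA hydratase gene placed in the breakdown of branched-chain amino acids, with the fat diet (*ech-6* RNAi + P-80). The second had the same RNAi with the water vehicle (*ech-6* RNAi + vehicle), the third the empty vector with the fat diet (EV + P-80), and the fourth the empty vector with the vehicle (EV + vehicle). P-80 stands for polysorbate 80, in which oleic acid is bound to a hydrophilic group, and all worms of the 4 groups ate the *E. coli* strain HT115 that the RNAi clones need.

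Lipid-binding proteins keep fatty acids soluble and carry them between membranes, enzymes and receptors. LBP-1, LBP-2 and LBP-3 carry a signal for secretion and are taken to act outside cells, while the other members are intracellular. LBP-8 is known in the worm for moving from the lysosome to the nucleus when the lysosomal acid lipase LIPL-4 is raised, where its lipid cargo acts on the nuclear hormone receptors NHR-49 and NHR-80, and LBP-3 is known as a lipid carrier secreted from fat tissue in the same setting. RNA levels of these genes say nothing of where the proteins were or what they carried.

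Each sample held between 15306307 and 28129104 reads. In the knockdown, *ech-6* stood at 63.1, 68.3, 72.3 and 61.0 CPM (reads scaled to the size of the library) in the *ech-6* RNAi + P-80 samples 1 to 4, against 210, 237, 176 and 187 CPM in EV + P-80. It stood at 68.3, 66.4, 178 and 71.8 CPM in the *ech-6* RNAi + vehicle samples, against 181, 169, 165 and 164 CPM in EV + vehicle. The library labelled *ech-6* RNAi + vehicle replicate 3 therefore held as much *ech-6* RNA as the EV libraries, and what changes without it is given below beside the results that use it. Markers of intestine (7 of 8 listed genes in the table), hypodermis (7 of 7), body wall muscle (7 of 7), neurons (8 of 8), germline and oocytes (8 of 8) and sperm (7 of 7) were all present, and 3 of 8 embryo markers were. In whole worms, fewer cells of a type and less RNA per cell cannot be told apart.

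The members differed in level by over 3 orders of magnitude. Per kilobase of exon, the mean level over 16 samples was 369 CPM per kb for *lbp-6*, 357 for *lbp-9* and 267 for *lbp-2*, which formed the high group. A middle group held *lbp-5* at 87.6, *lbp-7* at 75.5 and *lbp-3* at 65.7 CPM per kb, followed by *lbp-1* at 36.8 and *lbp-4* at 35.3 CPM per kb. The last, *lbp-8*, averaged 0.252 CPM per kb. Over all 16 samples the ranges of *lbp-6* and *lbp-9* overlapped, as did those of *lbp-5* and *lbp-7*, of *lbp-7* and *lbp-3*, of *lbp-3* and *lbp-1*, and of *lbp-1* and *lbp-4*. Within a group, *lbp-6* and *lbp-9* overlapped in 3 of 4 groups and *lbp-7* and *lbp-3* in 3 of 4, so that these neighbours do not differ beyond their spread there. *lbp-5* and *lbp-7* overlapped within *ech-6* RNAi + P-80 alone, and *lbp-3* lay above *lbp-1* in all 4 groups. The ranges of *lbp-9* and *lbp-2*, of *lbp-2* and *lbp-5*, and of *lbp-4* and *lbp-8* did not overlap.

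**Figure D1:**
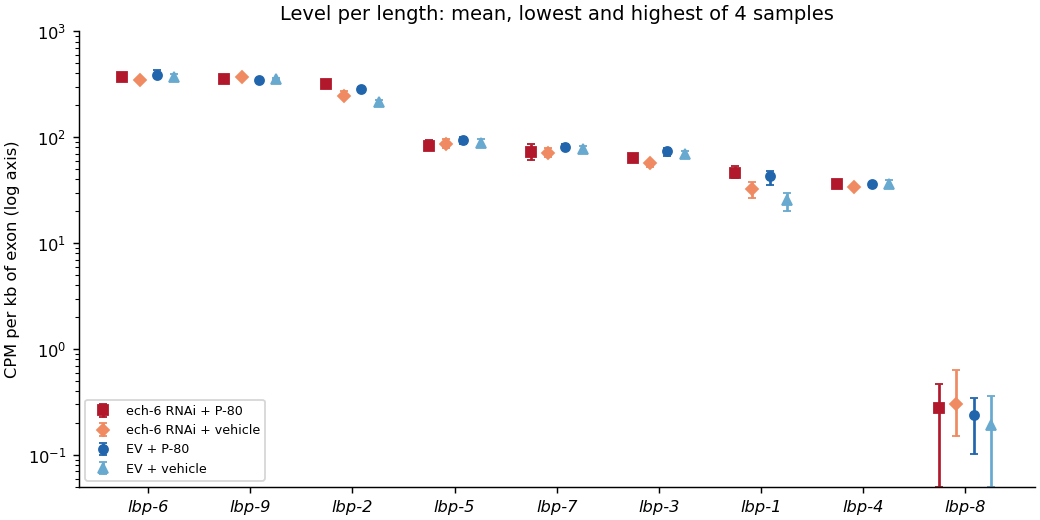
Level of each lipid-binding protein gene in CPM per kb of exon (log axis), with genes ordered by their mean over 16 samples. Points are means of 4 samples and bars run from the lowest to the highest sample (for *lbp-8*, a sample with no reads is drawn at the lower edge of the axis). The points of *lbp-6*, *lbp-9* and *lbp-2* stand above 200 CPM per kb in every group, and *lbp-8* stands below 1.

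The order also depended on the group for a few members. *lbp-1* ranked above *lbp-4* with P-80 (46.0 ± 5.0 against 35.9 ± 2.3 CPM per kb in *ech-6* RNAi + P-80, and 42.8 ± 5.3 against 35.8 ± 1.4 in EV + P-80; SD, n = 4). It ranked below *lbp-4* with the vehicle (32.5 ± 5.6 against 33.6 ± 1.3 CPM per kb in *ech-6* RNAi + vehicle, and 25.7 ± 4.2 against 35.8 ± 2.3 in EV + vehicle). The ranges of the pair overlapped within *ech-6* RNAi + vehicle and within EV + P-80, and not in the other groups. At the top, *lbp-6* stood first in 3 groups, and *lbp-9* did in *ech-6* RNAi + vehicle, where their ranges overlapped.

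*lbp-1* and *lbp-2*, members of the secreted group, were the ones that rose with P-80, and they did so on both RNAi backgrounds. Values below are log2 CPM, as deposited, for samples 1 to 4 of a group. *lbp-1* had 4.88, 4.60, 4.52 and 4.68 in *ech-6* RNAi + P-80, against 4.39, 3.89, 4.36 and 4.0 in *ech-6* RNAi + vehicle. It had 4.63, 4.57, 4.31 and 4.75 in EV + P-80, against 3.87, 3.89, 4.06 and 3.47 in EV + vehicle. In both pairs the P-80 samples all lay above the vehicle samples, and the lowest level of the 16 was EV + vehicle replicate 4. The log2 fold change of *lbp-1* was 0.51 (SE 0.13, 95% interval 0.24 to 0.78, adjusted p = 0.0230) in *ech-6* RNAi and 0.74 (SE 0.13, 0.47 to 1.02, adjusted p = 0.000888) in EV, or 1.42-fold and 1.67-fold.

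*lbp-2* behaved alike at a higher level. It had 7.97, 7.87, 7.93 and 7.88 log2 CPM in *ech-6* RNAi + P-80, against 7.68, 7.48, 7.49 and 7.53 in *ech-6* RNAi + vehicle. It had 7.77, 7.81, 7.69 and 7.81 in EV + P-80, against 7.38, 7.41, 7.39 and 7.25 in EV + vehicle, again with no overlap in either pair. Its log2 fold change was 0.36 (SE 0.05, 95% interval 0.26 to 0.47, adjusted p = 0.000159) in *ech-6* RNAi and 0.42 (SE 0.05, 0.31 to 0.52, adjusted p = 2.49e-05) in EV, or 1.29-fold and 1.33-fold. These p-values measure the spread between samples, which the labels do not state to be separate cultures.

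**Figure D2:**
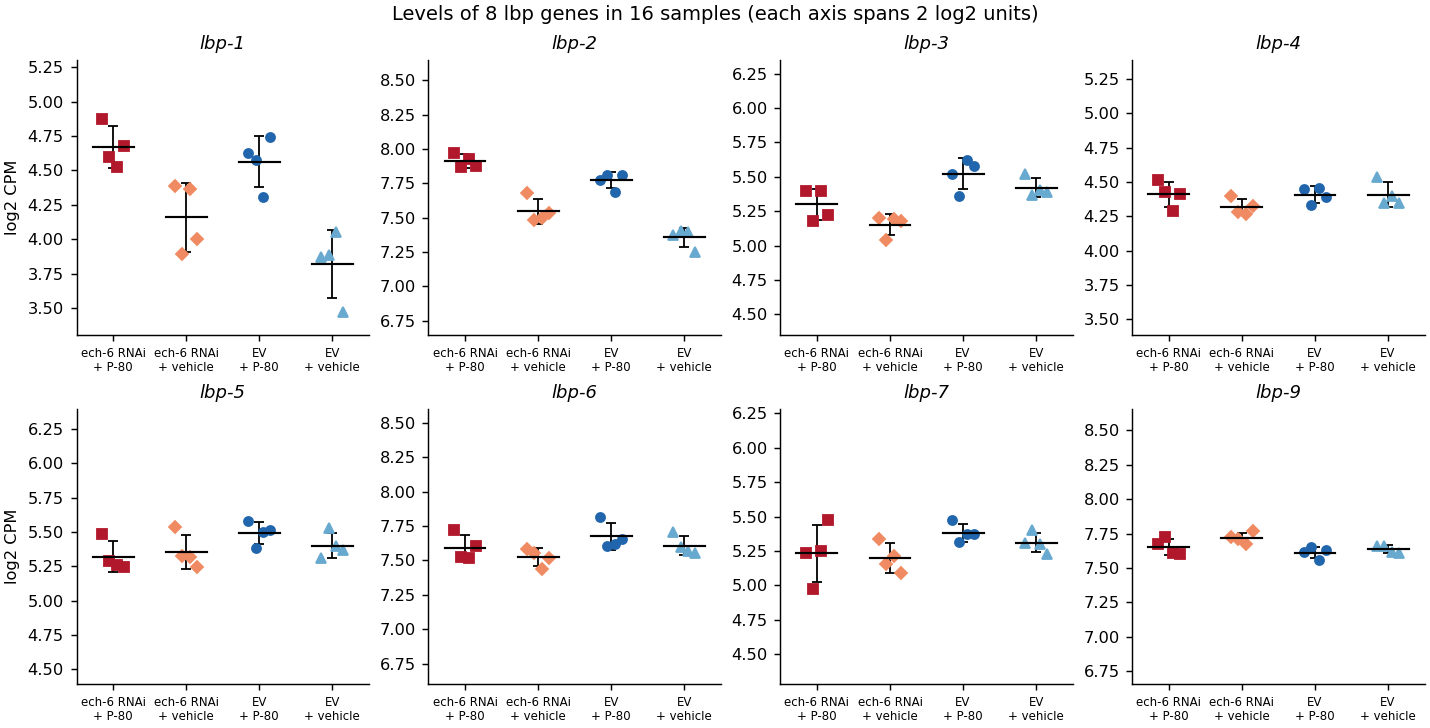
Log2 CPM of 8 lipid-binding protein genes in each of 16 samples, in 4 groups. Points are samples, bars are group means with the SD (n = 4), and every axis spans the same log2 range. For *lbp-1* and *lbp-2* all P-80 samples lie above the vehicle samples of the same RNAi, and the other genes overlap between P-80 and vehicle.

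The third secreted member, *lbp-3*, did not pass the test for P-80. It had 5.40, 5.18, 5.40 and 5.22 log2 CPM in *ech-6* RNAi + P-80, against 5.20, 5.04, 5.19 and 5.18 in *ech-6* RNAi + vehicle, with overlap (log2 fold change 0.15, SE 0.07, adjusted p = 0.230). It had 5.52, 5.36, 5.63 and 5.58 in EV + P-80, against 5.52, 5.37, 5.41 and 5.39 in EV + vehicle (log2 fold change 0.10, SE 0.07, adjusted p = 0.347). With each sample centred on its median, the *ech-6* RNAi value reached 0.23 with an adjusted p of 0.0350.

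The 6 members taken to be intracellular did not pass the test for P-80 on either background. Leaving aside *lbp-8*, their log2 fold changes lay between -0.06 for *lbp-9* and 0.09 for *lbp-4* in *ech-6* RNAi, and between -0.02 for *lbp-9* and 0.09 for *lbp-5* in EV. *lbp-6*, with the highest mean level per length over 16 samples, had 7.72, 7.53, 7.52 and 7.60 log2 CPM in *ech-6* RNAi + P-80, against 7.58, 7.56, 7.44 and 7.52 in *ech-6* RNAi + vehicle. In EV + P-80 it had 7.82, 7.60, 7.62 and 7.66, against 7.71, 7.60, 7.57 and 7.56 in EV + vehicle. The groups overlapped, and the 95% intervals of its difference (-0.05 to 0.18 in *ech-6* RNAi and -0.05 to 0.18 in EV) exclude changes as large as that of *lbp-2*. *lbp-4* ran from 4.27 to 4.54, *lbp-5* from 5.24 to 5.58 and *lbp-7* from 4.97 to 5.47 log2 CPM over all samples, with overlap between P-80 and vehicle for each. *lbp-9* was the steadiest of the 9, with a range of 0.21 log2 units over 16 samples (7.56 to 7.77), against 1.41 for *lbp-1*, 0.72 for *lbp-2* and 0.59 for *lbp-3*.

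Of the members, 2 of 9 rose with P-80 in *ech-6* RNAi and 2 of 9 in EV, *lbp-1* and *lbp-2* in both, and 0 of 9 fell. Over the 19750 genes of the table, the same test called 2.63% higher and 4.58% lower in the *ech-6* RNAi pair, and 6.97% higher and 9.14% lower in the EV pair. Members whose P-80 and vehicle groups did not overlap also numbered 2 and 2, while 11.2% of all genes did not overlap in *ech-6* RNAi and 19% in EV. The median log2 fold change over the 9 members was 0.07 in *ech-6* RNAi and 0.09 in EV, against -0.02 and -0.003 over all genes. It was 0.08 on both backgrounds over the 8 members other than *lbp-8*. With each sample centred on its median, the split of called genes became 1033 higher and 756 lower in *ech-6* RNAi (519 and 905 as deposited), and 2361 higher and 1361 lower in EV (1377 and 1805 as deposited).

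The response to P-80 was not shown to depend on *ech-6* for any member. For *lbp-1* the P-80 effect in *ech-6* RNAi minus that in EV was -0.23 log2 units (95% interval -0.62 to 0.15, adjusted p = 0.885), and for *lbp-2* it was -0.05 (-0.20 to 0.09, adjusted p = 0.933). By limma's test 0 of 9 members passed, 0 of 9 had an unadjusted p under 0.05, and 0% of all genes passed (1168 of 19750 had an unadjusted p under 0.05). By voom weights on the recovered reads, 0 members and 1 gene passed.

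**Figure D3:**
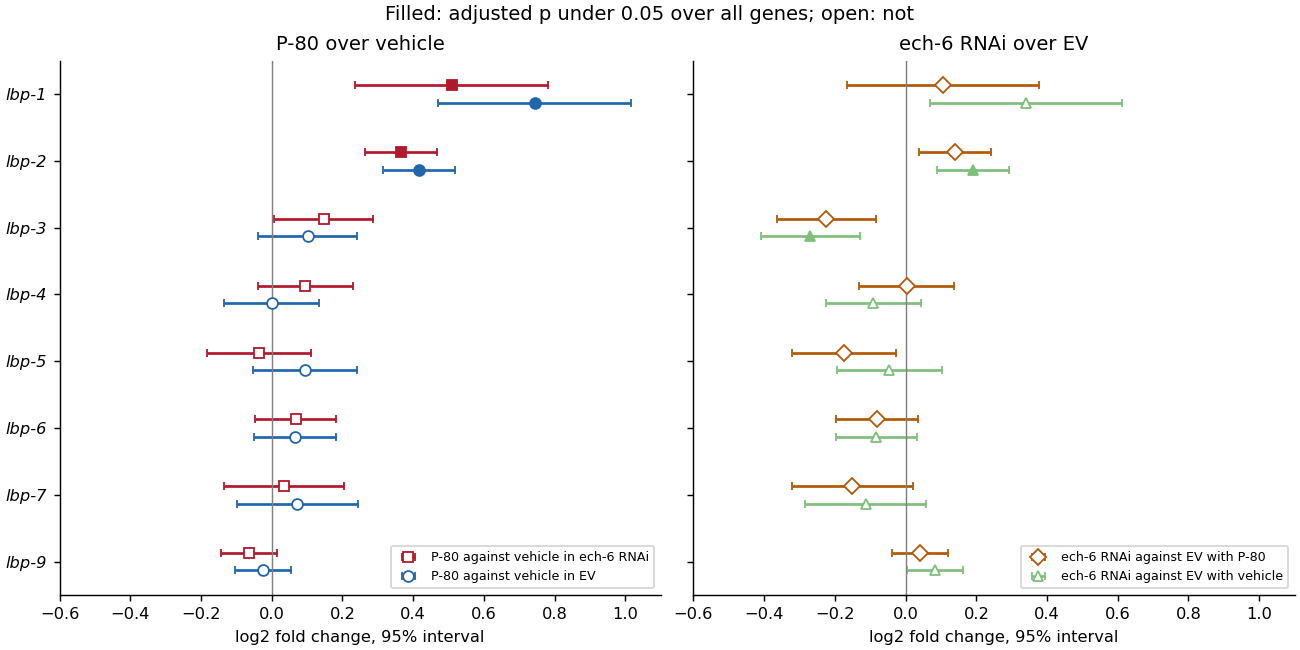
Log2 fold changes with 95% intervals of 8 lipid-binding protein genes, for P-80 over vehicle (left) and *ech-6* RNAi over EV (right). Filled symbols passed an adjusted p of 0.05 over all genes. *lbp-1* and *lbp-2* are filled on the left in both RNAi backgrounds, and on the right *lbp-2* (0.19) and *lbp-3* (-0.27) are filled with the vehicle only.

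The call for *lbp-2* with P-80 held under every alternative tried on both backgrounds, and so did that of *lbp-1* in EV. The call for *lbp-1* in *ech-6* RNAi was lost without the mean-variance trend (adjusted p = 0.0826) and when any of 4 libraries was left out, namely *ech-6* RNAi + vehicle replicate 2 (adjusted p = 0.0927) or 4 (0.0817) and *ech-6* RNAi + P-80 replicate 1 (0.0881) or 4 (0.0591). Without the library labelled *ech-6* RNAi + vehicle replicate 3 the log2 fold change in *ech-6* RNAi was 0.58 (adjusted p = 0.0298) for *lbp-1* and 0.35 (adjusted p = 0.00128) for *lbp-2*. The members called and those not overlapping then numbered 2 and 2 as before, while 1.55% of all genes were called higher, 2.01% lower, and 14.2% did not overlap.

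Larval molting genes moved with P-80 in the same samples. The summed level of 8 molting genes was 187 to 396 CPM in *ech-6* RNAi + P-80 against 467 to 541 CPM in *ech-6* RNAi + vehicle, and 158 to 451 CPM in EV + P-80 against 638 to 1059 CPM in EV + vehicle. Of these genes 7 fell in *ech-6* RNAi and 8 fell in EV, and of 7 hypodermis markers 4 and 5 fell, all of them cuticle collagen genes, while the adult collagen gene *col-19* rose in EV. The part of these genes in the rise of *lbp-1* and *lbp-2* was not tested. Intestine markers counted 1 of 7 higher (*vha-6*) and 0 lower on each background, with summed levels of 1467 to 1597 CPM in *ech-6* RNAi + P-80 against 1344 to 1376 CPM in *ech-6* RNAi + vehicle, and of 1442 to 1714 CPM in EV + P-80 against 1435 to 1497 CPM in EV + vehicle. Body wall muscle markers counted 5 of 7 higher in *ech-6* RNAi and 3 of 7 in EV, germline and oocyte markers 0 of 8 in *ech-6* RNAi and 3 of 8 in EV, and sperm markers 0 of 7 on both (0 and 2 with an unadjusted p under 0.05). Over all 19750 genes, 3838 in *ech-6* RNAi and 5633 in EV had an unadjusted p under 0.05. Embryo markers counted 1 of 3 lower in *ech-6* RNAi (*skn-1*) and 2 of 3 in EV (*skn-1* and *pha-4*), and of 8 neuron markers *snb-1* was lower in EV. Only 3 of the 8 listed embryo markers were in the table, so that their counts are not read as embryo content. Without the library labelled *ech-6* RNAi + vehicle replicate 3, the counts in *ech-6* RNAi were 3 of 8 molting genes and 2 of 7 hypodermis markers lower and 2 of 7 muscle markers higher. The other counts of markers called in that comparison were as before, and sperm markers with an unadjusted p under 0.05 numbered 1.

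Silencing *ech-6* went with a higher *lbp-2* and a lower *lbp-3* when worms had the vehicle. For *lbp-2* the *ech-6* RNAi + vehicle samples (7.48 to 7.68 log2 CPM) all lay above the EV + vehicle samples (7.25 to 7.41), with a log2 fold change of 0.19 (SE 0.05, 95% interval 0.09 to 0.29, adjusted p = 0.0409). For *lbp-3* the *ech-6* RNAi + vehicle samples (5.04 to 5.20) all lay below the EV + vehicle samples (5.37 to 5.52), with a log2 fold change of -0.27 (SE 0.07, -0.41 to -0.13, adjusted p = 0.0355). The difference for *lbp-1* was 0.34 (SE 0.13, 95% interval 0.07 to 0.61) with an adjusted p of 0.163, and the groups overlapped. *lbp-9* was the third member whose groups did not overlap, at 7.68 to 7.77 in *ech-6* RNAi + vehicle against 7.61 to 7.66 in EV + vehicle, and it did not pass either (log2 fold change 0.08, SE 0.04, adjusted p = 0.246). The 8 molting genes, summed to 467 to 541 CPM in *ech-6* RNAi + vehicle against 638 to 1059 CPM in EV + vehicle, counted 0 called and 6 with an unadjusted p under 0.05 by limma. Hypodermis markers had a median log2 fold change of -0.70, with 6 of 7 at an unadjusted p under 0.05 and *col-19* called higher. The neuron marker *snb-1* was called lower, and 5 of 8 germline and oocyte markers and 3 of 7 intestine markers had an unadjusted p under 0.05 with 0 called. In this comparison 3656 of all 19750 genes had an unadjusted p under 0.05. The median log2 fold change was 0.12 over the germline and oocyte markers, -0.14 over the intestine markers and -0.65 over the molting genes. The part of these lists in the differences of *lbp-2* and *lbp-3* was not tested. When the library labelled *ech-6* RNAi + vehicle replicate 3 was left out, *col-19* was still called and *snb-1* was not, and 4 molting genes, 4 hypodermis, 4 germline and oocyte and 3 intestine markers had an unadjusted p under 0.05.

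These calls were close to the threshold. Without the library labelled *ech-6* RNAi + vehicle replicate 3 the log2 fold change was 0.21 (adjusted p = 0.0551) for *lbp-2* and -0.28 (adjusted p = 0.0616) for *lbp-3*, so that both values were larger and neither passed. For *lbp-1* it was 0.27 without that library, and 3 members again did not overlap, where 18.4% of all genes did not. The *lbp-2* call was also lost on leaving out EV + vehicle replicate 1, 3 or 4, EV + P-80 replicate 1, *ech-6* RNAi + vehicle replicate 1 or 4, or *ech-6* RNAi + P-80 replicate 4 (adjusted p over all such fits 0.0309 to 0.160). The *lbp-3* call was also lost on leaving out EV + vehicle replicate 1, 3 or 4 or any other *ech-6* RNAi + vehicle sample (0.0254 to 0.151). Without the mean-variance trend the adjusted p was 0.128 for *lbp-2* and 0.0956 for *lbp-3*, and with each sample centred on its median it was 0.0553 and 0.0758. The direction of both stayed the same in every fit.

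With P-80 the same members leaned the same way and none passed. *lbp-2* had 7.87 to 7.97 log2 CPM in *ech-6* RNAi + P-80 against 7.69 to 7.81 in EV + P-80, without overlap, with a log2 fold change of 0.14 (SE 0.05, adjusted p = 0.287). For *lbp-3* the values were 5.18 to 5.40 in *ech-6* RNAi + P-80 against 5.36 to 5.63 in EV + P-80, with a log2 fold change of -0.22 (SE 0.07, adjusted p = 0.169). *lbp-5*, an intracellular member, had 5.49, 5.29, 5.26 and 5.24 in *ech-6* RNAi + P-80, against 5.58, 5.39, 5.50 and 5.51 in EV + P-80 (log2 fold change -0.17, SE 0.07, adjusted p = 0.386). The comparison with P-80 does not use the library labelled *ech-6* RNAi + vehicle replicate 3 beyond its share in the common estimate of spread.

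Of the 9 members, 1 was higher and 1 lower in *ech-6* RNAi with the vehicle, where 1.95% of all genes were higher and 0.982% lower, and 3 did not overlap, where 13.1% of all genes did not. With P-80, 0 were called by limma's test, and 0 by voom weights too. By limma's test 3 members and 2037 of 19750 genes had an unadjusted p under 0.05 in that comparison. There 0.476% of all genes were higher and 0.223% lower, 1 member (*lbp-2*) did not overlap between the groups, and 4.62% of all genes did not. The median log2 fold change of the members was -0.05 with the vehicle and -0.08 with P-80, against 1.59e-05 and -0.01 over all genes, and -0.06 and -0.04 over the 8 members other than *lbp-8*. The remaining intracellular members, *lbp-4*, *lbp-6* and *lbp-7*, had log2 fold changes from -0.11 to -0.08 with the vehicle and from -0.15 to 0.003 with P-80, with adjusted p of at least 0.446. *lbp-5* had -0.05 with the vehicle, and *lbp-9* had 0.04 with P-80.

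*lbp-3*, *lbp-1* and *lbp-2* lie side by side on the plus strand of chromosome X (WBcel235), all protein-coding. *lbp-3* spans bases 3257372 to 3258155, *lbp-1* bases 3259142 to 3259812 and *lbp-2* bases 3260610 to 3261470, with 986 and 797 bases between them. The 3 other genes within 10 kb, *tba-9* (a tubulin), *pqn-37* and *sul-1* (a sulfatase), passed none of the 4 comparisons (adjusted p 0.610 to 0.991). The middle gene *lbp-1* and the last gene *lbp-2* were the members called with P-80, and the first gene *lbp-3* was not.

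**Figure D4:**
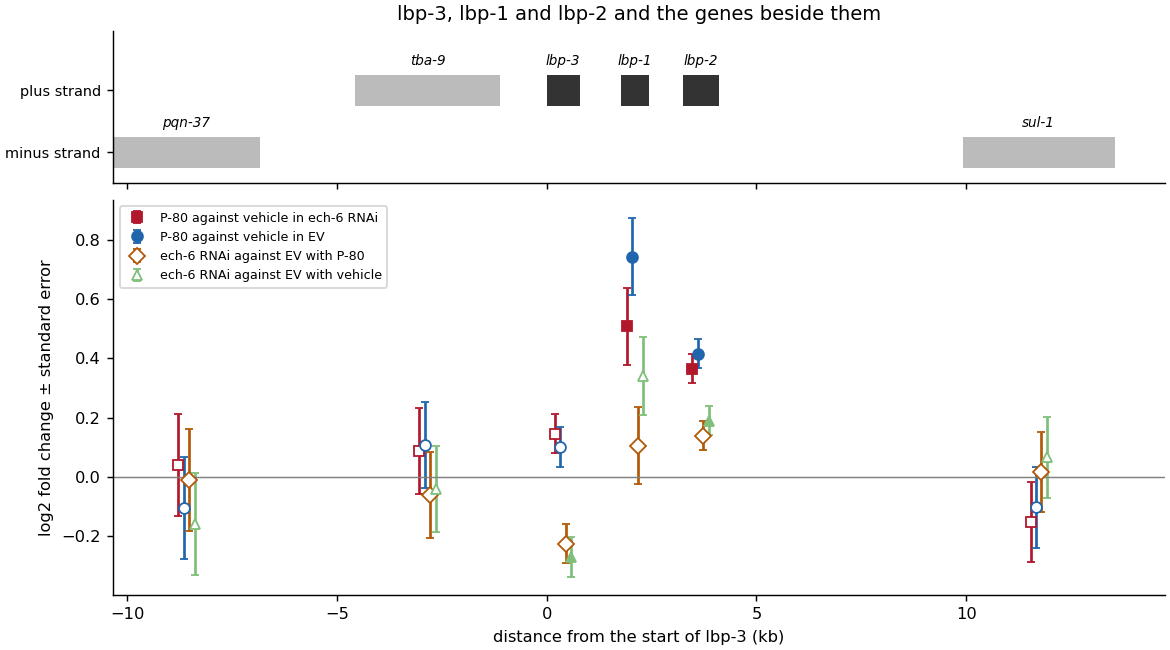
Top, genes around *lbp-3*, *lbp-1* and *lbp-2*, drawn by their distance in kb from the start of *lbp-3*, with neighbours in grey. Bottom, log2 fold change and standard error of each gene in the 4 comparisons, filled where the adjusted p over all genes was under 0.05. *lbp-1* (0.74 in EV) and *lbp-2* (0.42 in EV) are filled for P-80, and *lbp-3* (-0.27) lies below 0 for *ech-6* RNAi with the vehicle.

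The ratio of *lbp-2* to *lbp-3* within a sample differed without overlap in all 4 comparisons. Its log2 value averaged 2.61 ± 0.07 in *ech-6* RNAi + P-80, against 2.39 ± 0.08 in *ech-6* RNAi + vehicle and 2.25 ± 0.16 in EV + P-80 (SD, n = 4). It averaged 1.93 ± 0.09 in EV + vehicle, below both EV + P-80 and *ech-6* RNAi + vehicle. The two-sided exact permutation p was 0.0286 in each, the smallest that 4 samples against 4 allow, and over the 12 ratio tests made on these 3 genes the Benjamini-Hochberg adjusted value was 0.0571. The ratios were chosen after the single-gene values had been seen, and the comparisons share groups. For *ech-6* RNAi with the vehicle the outcome was fixed in advance, since *lbp-2* lay wholly above and *lbp-3* wholly below the EV samples. The library labelled *ech-6* RNAi + vehicle replicate 3 had the lowest ratio of its group, 2.30, above the EV + vehicle range of 1.85 to 2.04. The exact permutation p was between 0.0286 and 0.0857 for the ratio of *lbp-1* to *lbp-3* and between 0.0571 and 0.714 for that of *lbp-2* to *lbp-1*.

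The other members are spread over chromosomes I and V. *lbp-6* (chromosome I, minus strand, bases 6728296 to 6729376) and *lbp-5* (6731267 to 6732276, minus strand) are 1890 bases apart, with *ant-1.2* between them, and *lbp-4* lies on chromosome V at 7820578 to 7821477. *lbp-7* (13879552 to 13880213), *lbp-8* (13890773 to 13891364) and *lbp-9* (2068449 to 2069142) are also on chromosome V, on the plus strand. Of the 23 other genes within 10 kb of these 6 members, 3 rose and 1 fell in the *ech-6* RNAi pair when P-80 was given, and 6 rose and 2 fell in the EV pair. Over all genes, 2.63% rose and 4.58% fell in the *ech-6* RNAi pair, and 6.97% rose and 9.14% fell in the EV pair. *ZK742.4* near *lbp-4*, *cpt-5* near *lbp-7* and *sptl-3* near *lbp-8* were higher on both backgrounds, and *cyp-35C1* near *lbp-8* was lower on both. In EV, *W02D3.4*, *T23B3.1* and *T22G5.1* were also higher and *oac-3* lower. *T22G5.1* averaged -3.47 log2 CPM over 16 samples, below *lbp-8* at -3.23, so that its call stands at the edge of detection. *oac-3* was also low, at -0.97 log2 CPM. Beside *lbp-7*, at a gap of 3663 bases on the same strand, stands *cpt-5*, a carnitine palmitoyl transferase gene of fatty acid oxidation, whose P-80 effect on the log2 scale was 1.61 in *ech-6* RNAi and 1.93 in EV (SE 0.10 and adjusted p of 8.39e-09 and 3.52e-10). *lbp-7* itself had log2 fold changes of 0.04 (95% interval -0.14 to 0.21) and 0.07 (-0.10 to 0.24). *mec-6* overlaps *lbp-6* and *Y40B10A.9* overlaps *lbp-9* on the other strand, and the counting used the direction of the reads.

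*lbp-8*, the carrier of the lysosomal signal, was at the edge of detection in day 1 adults. It had 4, 5, 2 and 0 reads in the *ech-6* RNAi + P-80 samples and 3, 2, 2 and 6 in *ech-6* RNAi + vehicle. It had 3, 4, 2 and 1 reads in EV + P-80 and 0, 4, 1 and 3 in EV + vehicle, so that the groups overlapped fully. In all, 42 of its reads were counted in 16 samples, against 6527 for *lbp-1* and 65128 for *lbp-9*.

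Pooled over the samples of a group, *lbp-8* stood at 0.150 CPM in *ech-6* RNAi + P-80 (exact Poisson 95% interval 0.0749 to 0.269) and 0.147 in *ech-6* RNAi + vehicle (0.0781 to 0.251). It stood at 0.125 in EV + P-80 (0.0598 to 0.229) and 0.0995 in EV + vehicle (0.0429 to 0.196). The intervals, which cover counting error only, overlap in every pair, and a sample with 0 reads allows up to 3 reads. A change of *lbp-8* RNA was not detectable at this depth, and its fitted fold changes, which depend on the constant added to the counts, are not read as differences. The pooled level of *ech-6* RNAi + vehicle was 0.154 CPM (0.0771 to 0.276) without the library labelled replicate 3. Of all genes, 7.07% had a lower mean log2 CPM than *lbp-8*, against 68.2% for *lbp-1*, the next lowest member.

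The other genes of the LIPL-4 and LBP-8 route were measured better. *lipl-4* averaged 1.26 ± 0.39 CPM in *ech-6* RNAi + P-80 against 0.611 ± 0.103 CPM in *ech-6* RNAi + vehicle (SD, n = 4), a log2 fold change of 1.01 (SE 0.26, adjusted p = 0.0265). In EV it averaged 1.33 ± 0.34 CPM with P-80 against 1.33 ± 0.29 CPM with the vehicle, a log2 fold change of -0.01 (SE 0.26, adjusted p = 0.983). In *ech-6* RNAi against EV with the vehicle it fell by 1.101 on the log2 scale (SE 0.26, adjusted p = 0.0293), and with P-80 the difference was -0.08 (adjusted p = 0.944). The difference between its P-80 effects was 1.02 (SE 0.37) and did not pass over all genes (adjusted p = 0.764). These values rest on 11 to 47 reads per sample. Without the library labelled *ech-6* RNAi + vehicle replicate 3 the 2 called differences were 1.03 (adjusted p = 0.0579) and -1.12 (adjusted p = 0.0577), so that neither passed. With only the groups compared in the fit, the first had an adjusted p of 0.0513. It was also lost on leaving out *ech-6* RNAi + vehicle replicate 1, 2 or 4 or *ech-6* RNAi + P-80 replicate 1, 2 or 3 (adjusted p 0.0517 to 0.0659), and the second on leaving out *ech-6* RNAi + vehicle replicate 1, 2 or 4 or EV + vehicle replicate 3 or 4 (0.0517 to 0.0906).

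*nhr-49* and *nhr-80*, the receptors that receive the LBP-8 cargo, passed none of the 4 comparisons. *nhr-49* averaged 68.2 ± 4.3 CPM in *ech-6* RNAi + P-80, 64.6 ± 1.8 in *ech-6* RNAi + vehicle, 68.3 ± 2.0 in EV + P-80 and 68.1 ± 1.4 in EV + vehicle. *nhr-80* averaged 8.45 ± 0.91 CPM in *ech-6* RNAi + P-80, 8.27 ± 1.504 in *ech-6* RNAi + vehicle, 6.98 ± 0.62 in EV + P-80 and 7.65 ± 0.55 in EV + vehicle. The largest of their log2 fold changes was 0.27 (SE 0.12, adjusted p = 0.436) for *nhr-80* in *ech-6* RNAi against EV with P-80.

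**Figure D5:**
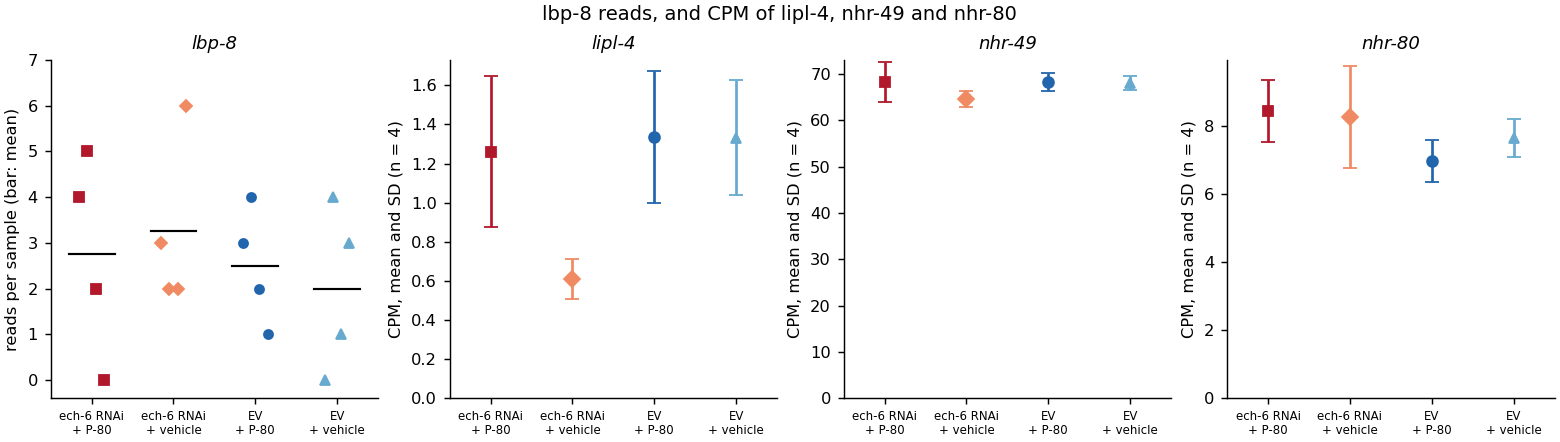
Reads of *lbp-8* in each sample (left, bars are means) and CPM of *lipl-4*, *nhr-49* and *nhr-80* (mean and SD, n = 4) in the 4 groups. Over all samples *lbp-8* has 0 to 6 reads per sample, *lipl-4* is lowest in *ech-6* RNAi + vehicle at 0.611 CPM, and *nhr-49* stands between 64.6 and 68.3 CPM.

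Around these genes, listed lipid genes moved in both directions with P-80. Of 7 measured lysosomal-type lipase genes, 4 rose and 2 fell in *ech-6* RNAi (*lipl-4*, *lipl-1*, *lipl-7* and *lipl-3* against *lipl-2* and *lipl-5*), and 2 rose and 3 fell in EV (*lipl-1* and *lipl-7* against *lipl-2*, *lipl-5* and *lipl-6*). The summed level of these 7 genes was lower with P-80 on both backgrounds. It was 91.1 to 107 CPM in *ech-6* RNAi + P-80 against 221 to 267 CPM in *ech-6* RNAi + vehicle. In EV + P-80 it was 104 to 134 CPM, against 278 to 300 CPM in EV + vehicle. Of 8 lipid genes known to depend on NHR-49, *fat-5* (a fatty acid desaturase) and *cpt-5* rose on both backgrounds, *hacd-1* and *icl-1* fell on both, and *acs-2* fell in EV. Of 5 genes for nuclear receptors and a coactivator of fat metabolism, 0 passed limma's test in *ech-6* RNAi and 2 fell in EV (*nhr-66* and *mdt-15*). In *ech-6* RNAi 2 of them had an unadjusted p under 0.05, where 3838 of all 19750 genes did.

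Another class of fatty acid carriers, the fatty acid and retinol binding proteins, which are unrelated in structure to the lipid-binding proteins, counted 2 of 8 genes higher in *ech-6* RNAi and 4 of 8 in EV, and 0 lower. *far-2* had log2 fold changes of 0.31 (SE 0.06, adjusted p = 0.00821) in *ech-6* RNAi and 0.28 (SE 0.06, adjusted p = 0.00653) in EV, and *far-6* had 0.35 and 0.32. Without the mean-variance trend the *far-2* value in *ech-6* RNAi had an adjusted p of 0.0568. Of 8 genes of yolk lipid transport 6 rose and 1 fell in *ech-6* RNAi and 7 rose and 1 fell in EV, the vitellogenin genes *vit-1* to *vit-6* among those that rose on both. In *ech-6* RNAi against EV, with the vehicle *lipl-4*, *acs-2* and *icl-1* fell and *far-8* rose, and with P-80 *lipl-5* and *hacd-1* fell and *ech-1.1* rose. Without the library labelled *ech-6* RNAi + vehicle replicate 3, *lipl-3*, *lipl-4*, *icl-1*, *vit-2* and *vit-4* were no longer called for P-80 in *ech-6* RNAi, nor *lipl-4* and *far-8* for *ech-6* RNAi with the vehicle, and the other calls of these lists in both comparisons held. For *ech-6* RNAi against EV, 0 of the yolk transport genes passed limma's test with the vehicle or with P-80 (1 with the vehicle and 0 with P-80 had an unadjusted p under 0.05).

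The family total shows what these changes added up to. The 9 genes together held 800 ± 29.8 CPM in *ech-6* RNAi + P-80 against 734 ± 27.8 CPM in *ech-6* RNAi + vehicle, and 797 ± 24.4 CPM in EV + P-80 against 719 ± 22.8 CPM in EV + vehicle (SD, n = 4), without overlap in either pair. The log2 ratio of the means was 0.12 in *ech-6* RNAi and 0.15 in EV for P-80, and 0.005 with P-80 and 0.03 with the vehicle for *ech-6* RNAi over EV. The *ech-6* RNAi + vehicle samples other than the library labelled replicate 3 held 741 ± 28.9 CPM (SD, n = 3), and the log2 ratios without that library were 0.11 for P-80 and 0.04 for *ech-6* RNAi with the vehicle. *lbp-2* held 30.1% of the family total in *ech-6* RNAi + P-80 against 25.5% in *ech-6* RNAi + vehicle, and 27.4% in EV + P-80 against 22.8% in EV + vehicle. *lbp-8* held 0.0143% to 0.0217% in every group.

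The genes whose pattern over the 16 samples was most like that of a called member were found among 13902 genes, by the root mean square of the difference after each gene was centred on its own mean. For *lbp-1* they were *col-80*, a cuticle collagen gene (difference 0.104 log2 units), and *C05D9.9* (0.106), where *lbp-1* itself spread by 0.385. For *lbp-2* they were *ptr-13*, a patched-related gene (0.0529), and *rhr-1*, a Rhesus antigen related gene (0.0587), where *lbp-2* spread by 0.221. For *lbp-3* they were *F37C4.6* (0.0682) and *C31H5.4* (0.0771), where *lbp-3* spread by 0.162. *col-80* had log2 fold changes with P-80 of 0.42 in *ech-6* RNAi and 0.78 in EV, beside 0.51 and 0.74 for *lbp-1*. Similar fold changes follow from the choice, since *col-80* was picked for its likeness to *lbp-1* in these same samples.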

How the data were processed

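RNA was sequenced from 16 whole-worm samples in 4 groups, which the labels name by RNAi clone and supplement. Per the study's methods, the authors depleted ribosomal RNA, made stranded libraries, trimmed reads with Trimmomatic 0.32, mapped them to WBcel235 (Ensembl 91) by HISAT2 2.0.4 and counted them with HTSeq 0.6.1 by read direction. Their filter on low counts (above 2 in 4 samples) had been applied to the table. The deposited values are log2 CPM, which the authors made from TMM-scaled counts with a small constant, although the header says CPM. Whole reads were recovered from them (100% of values, within 0.05 read or a relative error of 1e-06), and CPM, reads and counting intervals come from these. No per-sample column was left unused. Reads that near-identical copies could share were not analysed here.

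The log2 values were fitted in R 4.3.3 with limma 3.58.1 (lmFit, eBayes with a mean-variance trend, 16 samples, 1 mean per group) for 5 comparisons, with two-sided tests and Benjamini-Hochberg adjustment over 19750 genes, called at 0.05. The procedure was tested on simulated data. Over all genes the standard error of log2 fold changes had a median of 0.14. Alternatives were no trend, robust variances, a minimum mean of 1 CPM, quantile normalization, median centring, only the groups compared, sample weights, voom weights on the recovered reads, a prior count of 2 reads, a block for the replicate number, and fits that each leave out 1 sample. Gene positions come from Ensembl 115, also WBcel235. The members, the 13 other gene lists and the tests were chosen with earlier results of these data known. All 9 members and *ech-6* are named, with genes of the lists a sentence turns on, and for each called member the 2 genes of most similar pattern (mean log2 CPM at least 0).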

Additional observations from a re-analysis of the deposited data

Results flagged for a closer look

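Of 40 sets of 4 samples examined (9 members and *ech-6* in 4 groups), 2 held a sample far from the other 3 by Dixon's test, which flags about 1 in 20 sets by chance. The library labelled *ech-6* RNAi + vehicle replicate 3 had 7.4752 log2 CPM of *ech-6*, against 6.05 to 6.17 in the other samples of its group. In *ech-6* RNAi + vehicle replicate 2, *lbp-3* had 5.0378 log2 CPM, against 5.18 to 5.20 in the other samples of its group. Without that sample the difference of *lbp-3* between *ech-6* RNAi and EV with the vehicle was -0.23 (adjusted p = 0.106). Replicate 2 was also the lowest *lbp-3* sample of each other group, at 5.18 log2 CPM in *ech-6* RNAi + P-80, 5.36 in EV + P-80 and 5.37 in EV + vehicle.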

How the results depend on the processing

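Of 45 log2 fold changes of members (9 genes in 5 comparisons), 34 kept their sign under 10 alternatives and 16 fits with a sample left out, and 11 did not, none of which passed the test in the fit reported. For *lbp-8* a minimum of 1 CPM gave no value. Members called for P-80 in *ech-6* RNAi were 2, with 1 without the trend, 3 with median centring (*lbp-3* added) and 1 to 2 with a sample left out, and for *ech-6* RNAi with the vehicle they were 2, with 0 without the trend, 0 with median centring and 0 to 2 with a sample left out. The cause was not tested. In both P-80 comparisons and both *ech-6* RNAi comparisons the replicate block gave the same counts of members called (2, 2, 2 and 0), and for the interaction 0. Over genes averaging at least 1 CPM, same-numbered samples did not pair in general (correlations of deviations -0.29 to 0.49, and 5 of 16 samples correlated best with their own number). The value of 0.49 was between *ech-6* RNAi + P-80 replicate 3 and EV + P-80 replicate 3. Among the members, replicate 1 had the highest *lbp-6* value of every group and replicate 2 the lowest *lbp-3* value. What the replicate numbers stand for was not tested.

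Signs turned as follows for values that did not pass the test. For P-80 in EV, *lbp-4* became 0.011 (quantile), 0.086 (centring) and 0.0030 (voom), *lbp-9* 0.063 (centring), *lipl-4* 0.120 (quantile) and 0.073 (centring), and *nhr-49* -0.0021 (quantile). For P-80 in *ech-6* RNAi, centring gave 0.051 for *lbp-5* and 0.021 for *lbp-9*. For *ech-6* RNAi with P-80, *nhr-49* became 0.0011 (quantile), 0.035 (centring) and 0.019 (sample weights). The interaction of *lbp-6* became -0.0033 (voom). With a sample left out, values ran from -0.020 to 0.043 (*lbp-4*), -0.12 to 0.19 (*lipl-4*) and -0.0096 to 0.023 (*nhr-49*) for P-80 in EV. They ran from -0.091 to 0.025 (*lbp-5*), -0.045 to 0.12 (*lbp-7*), and -0.041 to 0.15 (*nhr-80*) for P-80 in *ech-6* RNAi. For *ech-6* RNAi they ran from -0.016 to 0.18 (*nhr-80*) with the vehicle and from -0.031 to 0.043 (*lbp-4*), -0.29 to 0.025 (*lipl-4*) and -0.040 to 0.035 (*nhr-49*) with P-80. For *lbp-8*, with 0 to 6 reads a sample, fitted values are no estimate of a change. They ran from -1.04 to 0.42 for P-80 in *ech-6* RNAi and from -0.80 to 0.66 for *ech-6* RNAi with P-80 (0.023 with a prior count of 2). Interactions ran from -0.0081 to 0.085 (*lbp-3*), -0.042 to 0.050 (*lbp-6*) and -0.12 to 0.050 (*lbp-7*).

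Counts over all genes moved by over 1.5 times in these settings. For P-80 in *ech-6* RNAi, 519 higher and 905 lower became 222 and 226 without the trend, 1033 higher with centring and 571 lower with robust variances, and for P-80 in EV 1377 higher became 2361 with centring. For *ech-6* RNAi with the vehicle, 386 higher and 194 lower became 171 and 51 without the trend and 595 and 428 with sample weights, and 878 were lower with only the groups compared. For *ech-6* RNAi with P-80, 94 and 44 became 46 and 21 without the trend and 57 and 18 with only the groups compared. The interaction went to 1 gene with robust variances, the 1 CPM minimum, voom or the prior count. Results without the library labelled *ech-6* RNAi + vehicle replicate 3 for sums, totals and overlap were added after seeing the data. Depth limits *lbp-8* (42 reads in 16 samples).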
